A study of Homo sapiens with 6 samples.

Results

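Open chromatin at 10 loci known as targets of the KMT2A-AFF1 fusion protein was described in B-cell acute lymphoblastic leukemia lines with and without knockdown of NSD2. The loci were FLT3, CDK6, BCL2, MEF2C, RUNX1, RUNX2, JMJD1C, ZEB2, PROM1 and LMO2, each taken as a fixed hg19 window around the gene, and every ATAC-seq peak that overlapped a window by at least 1 bp was a member. The windows spanned 2030 kb and held 250 of the 130872 regions formed when the peaks of all lists were merged. They held 1385 of the 718792 peaks. ATAC-seq maps accessible DNA with the Tn5 transposase, which inserts sequencing adapters where chromatin is open. The lines RS4;11 and SEM carry KMT2A-AFF1, and the line labelled RCH, taken to be RCH-ACV, does not. Each line carried sh2, an shRNA against the histone H3 lysine 36 methyltransferase NSD2, or NT, a non-targeting control. That gives 1 sample for each line and shRNA, with 2 peak lists per sample, read as 2 libraries. The title of the study names the NSD2 mutation E1099K, which all 3 lines are known to carry, so the NT cells are NSD2-mutant too. The labels give neither the way sh2 was delivered nor its duration, and peak lists do not show how far NSD2 fell. The libraries of a sample may share 1 culture, and their spread is then technical. RS4;11 and SEM are called the fusion lines from here on.

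KMT2A-AFF1 arises when the start of KMT2A, a histone H3 lysine 4 methyltransferase, is joined to AFF1, a part of the machinery that releases paused RNA polymerase. The fusion protein keeps the KMT2A domain that binds unmethylated CpG dinucleotides, and its targets are known for high transcription and for histone marks of active genes. RUNX1, RUNX2 and MEF2C encode transcription factors of blood and other lineages, ZEB2 a zinc-finger repressor, LMO2 an adaptor that bridges transcription factors, and JMJD1C a Jumonji-domain protein. FLT3 is a receptor tyrosine kinase, PROM1 the surface protein CD133, CDK6 a kinase of the G1 phase and BCL2 an inhibitor of apoptosis.

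Because that domain binds CpG, the CpG content of the known starts of these genes is given first. RefSeq promoters (GRCh38.p14) were matched by symbol for 9 of the 10 genes, with 22 entries, and the 250 bases before each start were read. Every one of the 9 genes had an entry above the median of 11 CG dinucleotides over the 35116 entries of the table, and 9 of the 22 entries lay below it. The genes differ in number of entries, with 7 for MEF2C and 1 for BCL2. No share over all genes is given, so the count by gene shows no difference from other genes. The entries of MEF2C ranged from 0 to 28 CG and those of RUNX2 from 0 to 34. Printed are the entries richest in CG of BCL2, MEF2C and PROM1, which held 5, 4 and 4 of the 14 regions open in every list of the fusion lines and in none of RCH, 5′ to 3′, with each CG in capitals. They are in GRCh38, coordinates were not converted, and no hg19 peak was placed on them.
BCL2 promoter, chr18:63319770-63320019, minus strand: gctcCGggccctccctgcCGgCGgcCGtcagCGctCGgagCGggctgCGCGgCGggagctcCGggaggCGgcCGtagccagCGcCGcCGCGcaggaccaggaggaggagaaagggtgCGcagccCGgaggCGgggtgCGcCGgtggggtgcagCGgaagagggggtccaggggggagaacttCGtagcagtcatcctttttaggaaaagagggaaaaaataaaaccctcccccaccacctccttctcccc
MEF2C promoter, chr5:88883185-88883434, minus strand: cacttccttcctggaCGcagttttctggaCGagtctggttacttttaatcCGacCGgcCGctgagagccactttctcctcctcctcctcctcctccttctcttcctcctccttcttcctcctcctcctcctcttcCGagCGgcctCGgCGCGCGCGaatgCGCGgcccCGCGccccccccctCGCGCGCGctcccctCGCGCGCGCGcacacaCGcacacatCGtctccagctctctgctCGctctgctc
PROM1 promoter, chr4:16083730-16083979, minus strand: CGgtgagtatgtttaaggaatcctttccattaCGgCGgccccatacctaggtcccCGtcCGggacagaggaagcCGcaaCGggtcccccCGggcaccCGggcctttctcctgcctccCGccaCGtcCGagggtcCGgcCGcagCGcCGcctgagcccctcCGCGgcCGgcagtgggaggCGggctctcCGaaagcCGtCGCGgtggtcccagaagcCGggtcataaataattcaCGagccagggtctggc
BCL2 has 24 CG in this stretch, and 23.7% of all entries have at least as many. MEF2C has 28, reached by 15.9% of entries, and PROM1 has 26, reached by 19.6%. The 4 entries of PROM1 ranged from 5 to 26 CG. In their richest entries JMJD1C has 35, RUNX2 34, RUNX1 32, FLT3 26 and ZEB2 12, and their windows held none of the 14 regions. CDK6 has 30 and held 1. The genes with the most CG were thus not those with the most of these regions, and a relation between the 2 was not tested.

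The 12 lists held 41594 to 84794 peaks, and median fold enrichment per list was 5.32 to 7.10. The fold is the authors' value per peak, read as signal over the caller's background in the same library. It ranks peaks within a list and is not comparable between lists. RCH sh2 had the shortest lists (44244 and 41594 peaks) and the lowest median folds (5.42 and 5.32), and RS4;11 NT the longest lists (84794 and 74244). These differences in length and signal move with line and shRNA and touch every count below.

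The loci were dense in regions, with 12.3 per 100 kb of window against 4.45 per 100 kb over the spans of all chromosomes. Density was 20.8 regions per 100 kb at CDK6, 20.0 at MEF2C, 18.3 at LMO2, 12.5 at ZEB2, 11.4 at PROM1, 11.0 at RUNX1, 10.9 at BCL2, 9.17 at FLT3, 8.40 at RUNX2 and 5.94 at JMJD1C. Even JMJD1C, the sparsest, with a stretch of 86.2 kb without a region, lay above the chromosome-wide value. Regions were as wide as elsewhere, with a median of 358 bp against 359 bp over all regions. Neighbouring genes may share some windows. In RefSeq, SUPT3H overlaps RUNX2 and REEP3 overlaps JMJD1C, though their overlap with the hg19 windows was not checked. A region in a window thus need not belong to the named gene.

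The first comparison asked whether the loci were more open in the lines that carry the fusion. Peaks in the 10 loci numbered 146, 146, 158 and 153 in RS4;11 (sh2 libraries 1 and 2, then NT libraries 1 and 2), 143, 145, 118 and 116 in SEM, and 57, 48, 78 and 77 in RCH. Every list of the fusion lines lay above every list of RCH. Over the 4 lists of a line the mean was 151 in RS4;11 and 131 in SEM, against 65.0 in RCH. Per 10000 peaks of a list, the loci held 18.6 to 23.7 in RS4;11 and 21.1 to 23.3 in SEM, against 11.5 to 13.8 in RCH. Relative to list length RS4;11 and SEM overlapped, and both stayed above RCH. The share of window bases covered by peaks was 2.76% to 3.17% in RS4;11 and 2.22% to 2.75% in SEM, against 0.970% to 1.58% in RCH. On the log2 scale of line means, the fusion lines were above RCH by 1.11 in number and by 0.75 in share. An exact permutation test over the 3 lines, two-sided, gave p = 0.333 for each, the smallest it allows. Anything else in which RCH differs from the other lines cannot be told apart from the fusion.

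**Figure D1:**
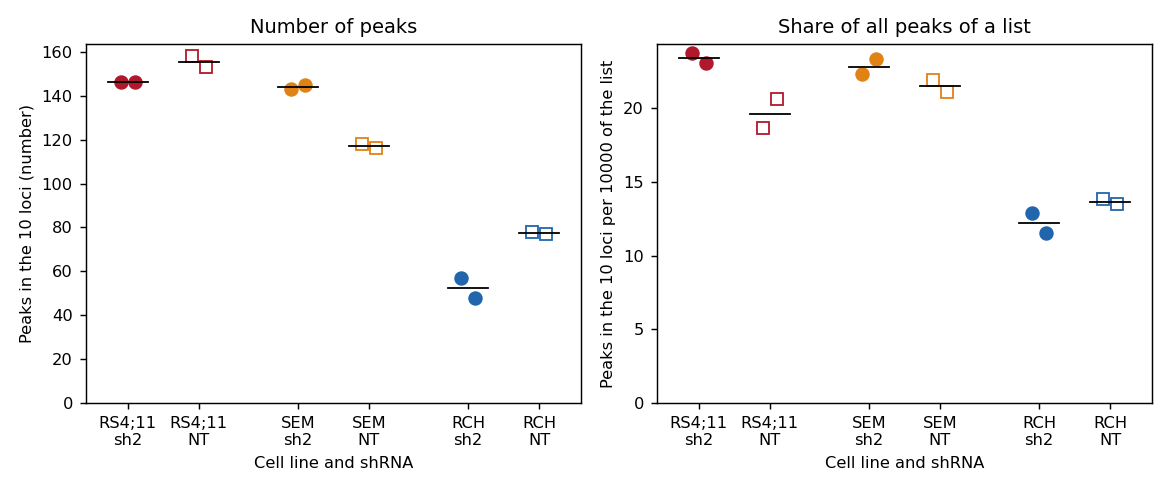
Number of ATAC-seq peaks in the 10 loci (left) and the same per 10000 peaks of the list (right), by cell line and shRNA. Each symbol is 1 library (filled circles sh2, open squares NT), each black bar is the mean of 2 libraries, and all lists of RS4;11 and SEM lie above all lists of RCH in both panels, with 18.6 to 23.7 against 11.5 to 13.8 per 10000.

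The higher number in the fusion lines lay in the lower-ranked part of their lists. Within the 40000 peaks of highest fold of each list, the loci held 48 to 59 peaks in the lists of the fusion lines and 46 to 51 in those of RCH, and the lines overlapped. Within the first 10000 they held 3, 2, 2 and 2 in RS4;11, 5, 6, 5 and 3 in SEM and 7, 6, 8 and 5 in RCH. RCH thus stood above RS4;11 there and overlapped SEM. Within the first 20000 they held 22, 22, 11 and 15 in RS4;11, 16, 17, 12 and 12 in SEM and 19, 19, 21 and 22 in RCH (sh2 libraries first). Beyond rank 40000 they held 24.6 to 45.1 per 10000 peaks in the fusion lines, against 12.5 to 18.2 in RCH. That rank fell at folds of 4.89 to 6.97 in the fusion lines and of 3.24 to 4.95 in RCH, so it marks different folds in lists of different length. The RCH sh2 values beyond it rest on 6 and 2 peaks. Among the 5000 peaks of lowest fold, 28 to 42 lay in the loci in each list of the fusion lines, against 5 to 9 in each list of RCH. The NT lists of SEM and RCH allow a comparison at like length. SEM NT had 53837 and 55072 peaks, against 56511 and 57088 for RCH NT. Up to rank 40000 the loci held 57 and 48 peaks in SEM NT against 48 and 51 in RCH NT, and beyond it 61 and 68 in SEM NT against 30 and 26 in RCH NT. Peaks of the 10 loci had a median fold percentile of 29.6 within their lists. With all NT lists cut to the 53837 peaks of highest fold, RS4;11 NT had 82 and 77 peaks in the loci, SEM NT 118 and 107, and RCH NT 72 and 71. All 3 lines were apart at that length, with RS4;11 NT closer to RCH NT than to SEM NT. The rank limits were chosen after the values were seen.

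**Figure D2:**
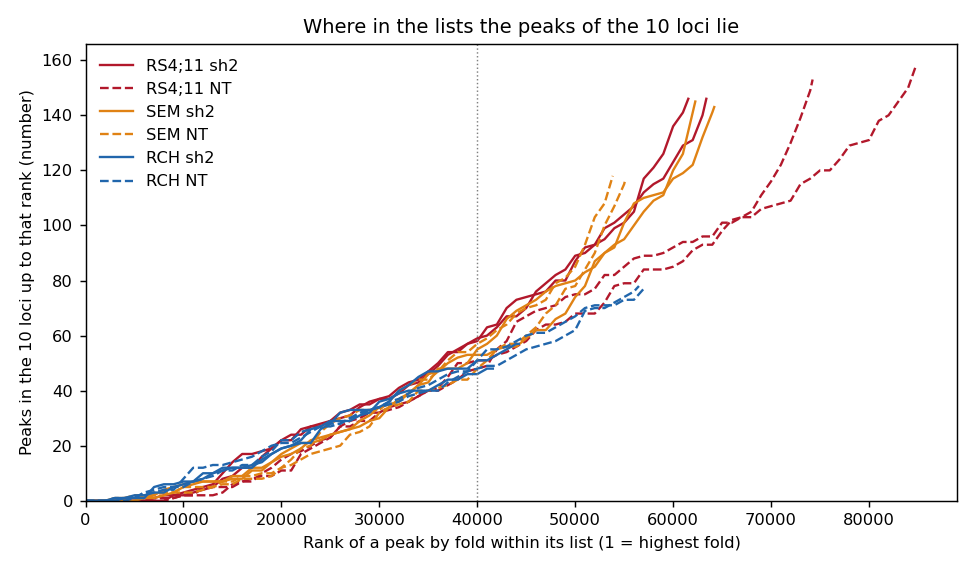
Cumulative number of peaks in the 10 loci against the rank of a peak by fold within its own list, for the 12 lists (solid lines sh2, dashed lines NT, colours by cell line). At rank 10000 the lists of RCH hold 5 to 8, those of RS4;11 2 to 3 and those of SEM 3 to 6. At rank 40000 (dotted line) all lists hold 46 to 59, and the curves of the fusion lines then climb faster than those of RCH.

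Among transcription factors, RUNX1 had 23, 23, 26 and 23 peaks in RS4;11 and 24, 22, 18 and 20 in SEM, against 12, 9, 15 and 15 in RCH, again with sh2 libraries before NT libraries. All lists of the fusion lines exceeded those of RCH. RUNX2, the family member best known from bone, had 9, 9, 10 and 13 in RS4;11 and 11, 12, 10 and 10 in SEM, against 2, 2, 5 and 5 in RCH. Its mean was 2.93 times the RCH mean in RS4;11 and 3.07 times in SEM, and its lists did not overlap either. MEF2C had 26, 24, 29 and 25 peaks in RS4;11 and 24, 25, 18 and 18 in SEM, against 8, 8, 14 and 11 in RCH. At MEF2C the lowest SEM lists, both NT, stood at 18 and the highest RCH list, also NT, at 14.

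ZEB2 had 6, 12, 9 and 8 peaks in RS4;11 and 7, 9, 6 and 7 in SEM, against 5, 4, 4 and 5 in RCH. The lists of RCH were lowest in number, but per 10000 peaks the lines overlapped, with 0.975 to 1.89 in RS4;11, 1.09 to 1.45 in SEM and 0.708 to 1.13 in RCH. LMO2 had 8, 10, 8 and 8 in RS4;11, 4, 6, 4 and 3 in SEM, and 4, 4, 4 and 3 in RCH. There RS4;11 stood above both other lines in number, and SEM overlapped RCH. Per 10000 peaks RS4;11 and SEM overlapped too. JMJD1C had 9, 5, 8 and 7 peaks in RS4;11 and 12, 8, 8 and 8 in SEM, against 5, 4, 5 and 4 in RCH, and RS4;11 and RCH touched at 5.

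Of the surface proteins, FLT3 stood apart between the fusion lines. It had 3, 3, 1 and 2 peaks in RS4;11, 7, 10, 6 and 6 in SEM, and 1, 2, 1 and 2 in RCH. Every SEM list thus exceeded every other list, and RS4;11 overlapped RCH. How often other stretches of the chromosomes part SEM from RS4;11 in this way was not counted. Peaks covered 2.045% to 2.84% of the FLT3 window in SEM, 0.614% to 0.989% in RS4;11 and 0.672% to 0.877% in RCH. PROM1 had 16, 14, 13 and 16 peaks in RS4;11 and 12, 13, 8 and 10 in SEM, against 4, 3, 5 and 6 in RCH. The PROM1 mean of RS4;11 was 3.28 times that of RCH, and all lists of both fusion lines stood above RCH.

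Of the genes of cell cycle and survival, CDK6 had 30, 30, 35 and 32 peaks in RS4;11 and 23, 21, 22 and 17 in SEM, against 10, 9, 16 and 15 in RCH. All 3 lines were apart, RS4;11 highest, also per 10000 peaks (4.13 to 4.87 in RS4;11, 3.09 to 4.09 in SEM and 2.16 to 2.83 in RCH). BCL2 had 16, 16, 19 and 19 in RS4;11 and 19, 19, 18 and 17 in SEM, against 6, 3, 9 and 11 in RCH. RS4;11 and SEM overlapped there in number, while per 10000 peaks SEM (2.96 to 3.34) lay above RS4;11 (2.24 to 2.60). In all, the lists of the fusion lines exceeded those of RCH at 7 of 10 loci in number and at 6 of 10 per 10000 peaks. For comparison, the chromosomes were divided into tiles of 200 kb, of which 6602 held at least 44 peaks over the 12 lists. That is the number at FLT3, the locus with the fewest peaks. The fusion lines exceeded RCH in the same way in 9.91% of these tiles in number and in 6.48% per 10000 peaks. The loci were richer in peaks than the tiles, with medians of 109 and 73 over the 12 lists. The exceptions were FLT3, JMJD1C and LMO2 in number, joined by ZEB2 per 10000 peaks. RS4;11 and SEM did not overlap at CDK6, LMO2 and FLT3 in number, and at CDK6, FLT3 and BCL2 per 10000 peaks. No share over the tiles is given for that contrast, so it shows no difference from the background.

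**Figure D3:**
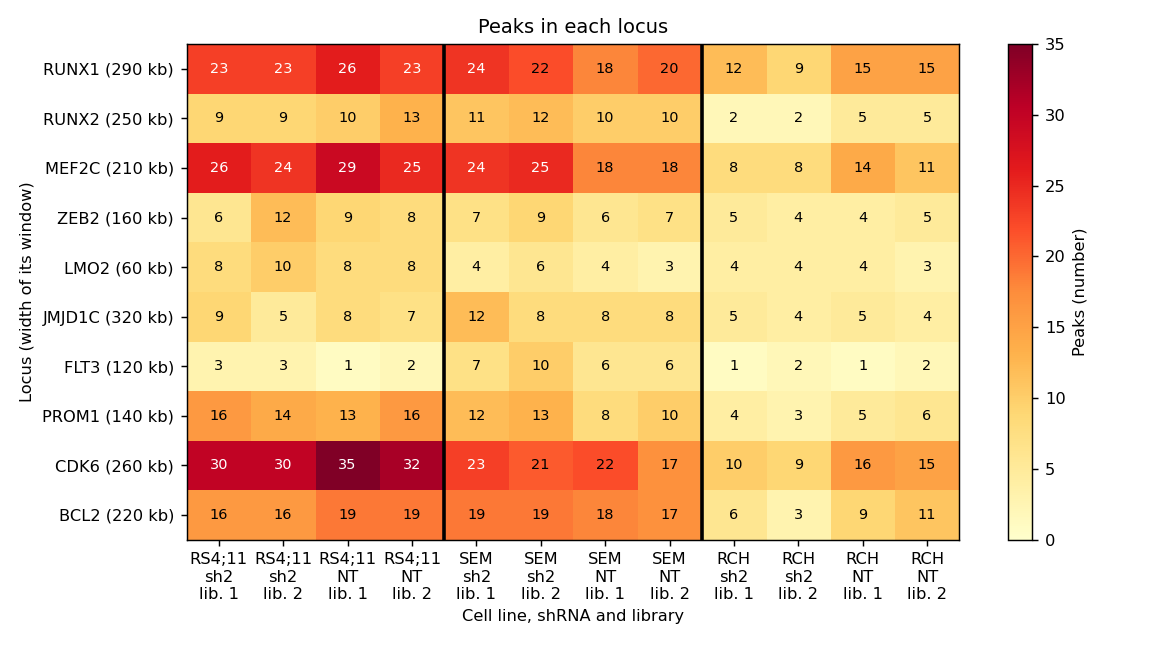
Number of peaks in each locus (rows, with the width of the window) in each of the 12 lists (columns, by cell line, shRNA and library). Colour and printed number are the same count, from 1 peak at FLT3 to 35 at CDK6 in RS4;11 NT library 1, and the RCH block is palest in most rows, with FLT3 darkest in SEM.

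Regions were then compared list by list. Of the 250 regions, 33 (13.2%) were open in all 12 lists, against 16.5% of all 130872 regions. RUNX1 and MEF2C had 7 of them each, CDK6 had 6, ZEB2 had 3, BCL2, JMJD1C, PROM1 and LMO2 2 each, and FLT3 and RUNX2 1 each. Regions open in all 4 lists of RS4;11 made up 41.6% of the 250, against 35.6% of all regions. Those open in all 4 lists of SEM made up 32%, against 28.9%, and those open in all 4 of RCH 14%, against 21.4%. Open in at least 1 list were 196 in RS4;11 (78.4%, against 73.4%), 185 in SEM (74%, against 60.5%) and 94 in RCH (37.6%, against 56.6%). Those open in 1 list alone numbered 56 (22.4%, against 28.3%). Regions open in all 12 lists were wide, with a median of 873 bp against 837 bp for all regions open in 12 lists. Their median fold percentile was 60.2 in the loci and 77.7 over all such regions.

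The strongest region open in every list, by mean fold percentile within the lists, was on chromosome 6 from 45345005 to 45346303 in the RUNX2 window. Folds there were 13.8, 12.8, 13.9 and 13.2 in RS4;11 (sh2 libraries first), 11.6, 11.2, 10.02 and 9.13 in SEM, and 11.4, 10.1, 14.1 and 11.7 in RCH. The percentile within its list was at least 77.3 throughout. In RefSeq SUPT3H overlaps RUNX2, and the region was placed on neither gene. At RUNX1 the top region was on chromosome 21 from 36398904 to 36399817, with folds from 9.16 to 13.0. FLT3 had its 1 such region on chromosome 13 from 28674156 to 28675236, with folds from 8.37 to 12.1, and at CDK6 it lay on chromosome 7 from 92384073 to 92384976, with 7.62 to 12.3. These regions stood in the upper part of every list, none below percentile 65.4.

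The top regions of ZEB2 and PROM1 ranked lower in some lists. ZEB2, on chromosome 2 from 145140383 to 145140934, showed 10.8, 13.2, 13.2 and 14.51 in RS4;11 and 14.4, 12.6, 11.49 and 12.2 in SEM, and 5.71, 4.37, 5.61 and 8.75 in RCH, where its lowest percentile was 29.1. PROM1, on chromosome 4 from 15964767 to 15965559, showed 12.7, 11.1, 11.54 and 11.2 in RS4;11, 9.06, 10.5, 7.47 and 6.25 in SEM, and 4.48, 5.0, 9.29 and 7.41 in RCH. It lies near the window edge, and RefSeq names FGFBP2 as the next gene on one side of PROM1. The remaining top regions were on chromosome 5 from 88122768 to 88123451 (MEF2C, folds 7.39 to 10.8), chromosome 11 from 33890572 to 33892259 (LMO2, 6.04 to 10.0), chromosome 10 from 65028525 to 65029253 (JMJD1C, 5.32 to 11.2) and chromosome 18 from 60986884 to 60988356 (BCL2, 5.35 to 9.74). The LMO2 region, at 1688 bp, was the widest in the 10 loci. Since folds are not normalized between lists, these values show where a peak stands within its library and no change in level.

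Regions open in all 8 lists of the fusion lines and in none of RCH numbered 14 of 250 (5.6%), against 1.44% of all regions. The reverse, open in all 4 lists of RCH and in none of the others, held for 0 of 250, against 0.889% of all regions. On the same 10 chromosomes outside the windows the shares were 1.49% and 0.786%. Regions open in all lists of RS4;11 alone numbered 4 (1.6%, against 2.03%), and those of SEM alone 5 (2%, against 0.957%). No region was open in all lists of RS4;11 and RCH alone (0.426% of all regions were) or of SEM and RCH alone (0.355% of all regions were). With the looser rule of at least 1 list of each fusion line and none of RCH the count was 64 (25.6%, against 11%). The 14 regions lay at 4 loci, 5 in BCL2, 4 in MEF2C, 4 in PROM1 and 1 in CDK6.

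The strongest of the 14 was on chromosome 18 from 60940728 to 60941126 in the BCL2 window. Its folds were 10.9, 10.0, 9.45 and 8.70 in RS4;11 and 8.06, 8.14, 6.61 and 6.69 in SEM, and no RCH list had a peak. It ranked at percentile 54.4 or higher in each of the 8 lists. At MEF2C the first by the same measure was on chromosome 5 from 88168739 to 88169227, with 5.93, 5.59, 5.44 and 5.01 in RS4;11 and 7.09, 4.43, 3.77 and 3.92 in SEM. At PROM1 it was on chromosome 4 from 16077627 to 16078049, with 4.67, 4.79, 5.59 and 4.92 in RS4;11 and 5.52, 5.77, 5.26 and 4.95 in SEM. The CDK6 region was on chromosome 7 from 92408297 to 92408652, with 5.86, 7.003, 6.29 and 5.12 in RS4;11 and 5.30, 5.08, 5.48 and 4.28 in SEM. The named regions of MEF2C, PROM1 and CDK6 had mean percentiles of 27.6, 29.6 and 33.9. The median percentile of the 14 was 29.1, against 51.1 for all 1887 regions of this kind.

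The count of such regions depended on peaks of low rank. With all lists cut to 41594 peaks of highest fold, 2 of 124 remaining regions were in this class (1.61%, against 1.08% of all regions) and 2 were open in RCH alone (1.61%, against 1.58%). In those cut lists the loci held 52 to 64 peaks in the fusion lines and 48 to 55 in RCH. A region without a peak in a cut list can have one in the list as deposited. With the NT lists alone, as deposited, 16 of 211 regions were open in every list of the fusion lines and none of RCH (7.58%, against 3.62%), 5 of them at BCL2. When these were cut to 53837 peaks each, 8 of 155 were (5.16%, against 2.96%), 5 of them again at BCL2. With the sh2 lists alone the number was 29 of 221 (13.1%, against 8.84%), where the RCH lists were shortest.

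**Figure D4:**
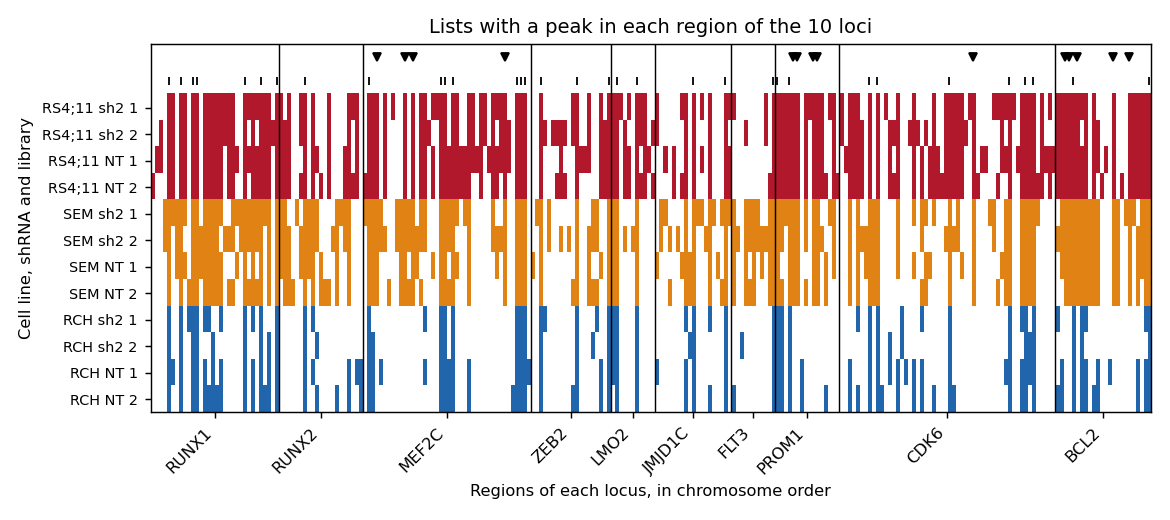
Each column is 1 of the 250 regions, ordered by position within each locus, each row 1 of the 12 lists, and a filled cell means that the list has a peak in the region (red RS4;11, orange SEM, blue RCH). Bars above mark the 33 regions open in all 12 lists, triangles the 14 open in all lists of the fusion lines and none of RCH, which lie at MEF2C, PROM1, CDK6 and BCL2.

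The second comparison asked whether NSD2 knockdown went with a difference at the loci. In RS4;11 the loci had 146 ± 0 peaks with sh2 and 156 ± 3.54 with NT (SD, n = 2 libraries), a difference of -6.11%, while all peaks of the lists differed by -21.4%. In SEM they had 144 ± 1.41 with sh2 and 117 ± 1.41 with NT, 23.1% more, against 16.1% more over all peaks. In RCH they had 52.5 ± 6.36 with sh2 and 77.5 ± 0.707 with NT, a difference of -32.3%, against -24.4% over all peaks. The libraries of sh2 and NT did not overlap in any line. The loci thus followed the whole list in direction, with a smaller relative difference in RS4;11 and a larger one in the other lines.

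Relative to list length the order of the lines changed. Per 10000 peaks of a list, the loci held 23.7 and 23.03 in RS4;11 sh2 against 18.6 and 20.6 in RS4;11 NT. In SEM they held 22.3 and 23.3 with sh2 against 21.9 and 21.1 with NT, and in RCH 12.9 and 11.5 with sh2 against 13.8 and 13.5 with NT. On the log2 scale, sh2 over NT in peak number was -0.09 for RS4;11, 0.30 for SEM and -0.56 for RCH. The mean over the 3 lines was -0.12 ± 0.43 (SD), with p = 0.75 by an exact sign-flip test, two-sided, whose smallest possible p is 0.25. For the share of the list it was 0.25, 0.08 and -0.16 in the same order, and averaged 0.06 ± 0.21 (SD, p = 0.75 by the same exact test). With 3 lines no common effect could be shown, and 1 sample per line and shRNA allowed no test within a line. The mean in number became 0.10 without RCH, and that of the share became -0.04 without RS4;11.

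By locus, sh2 lists lay below NT lists without overlap at CDK6, BCL2 and RUNX2 in RS4;11, and at CDK6, BCL2, MEF2C, RUNX1, RUNX2 and PROM1 in RCH. In SEM they lay above NT lists at FLT3, BCL2, MEF2C, RUNX1, RUNX2 and PROM1, and at none below. FLT3 also had more peaks with sh2 in RS4;11 (3 and 3 against 1 and 2 with NT). Of the 200 kb tiles, sh2 lay below NT in 32.3% and above in 4.39% in RS4;11. It lay above in 32.8% and below in 5.95% in SEM, and below in 39.3% and above in 5.71% in RCH. The direction that prevailed at the loci thus prevailed over the tiles in every line. JMJD1C, ZEB2 and LMO2 overlapped in all 3 lines. At BCL2 the mean with sh2 was 4.50 ± 2.12 in RCH against 10 ± 1.41 with NT, and 19 ± 0 in SEM against 17.5 ± 0.707 with NT. At MEF2C it was 24.5 ± 0.707 in SEM against 18 ± 0 with NT (SD, n = 2 libraries throughout).

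Regions open in both libraries of one shRNA and in neither library of the other were then counted in each line, as sh2-only and NT-only regions. RS4;11 had 6 sh2-only and 8 NT-only regions among the 196 of its regions in the loci. That is 3.06% sh2-only, against 0.854% of all RS4;11 regions, and 4.08% NT-only, against 9.79%. SEM had 13 sh2-only regions of 185 (7.03%, against 7.69% of all SEM regions) and 3 NT-only (1.62%, against 2.59%). RCH had 1 sh2-only region of 94 (1.06%, against 1.9%) and 12 NT-only (12.8%, against 10.6%). The shares of SEM and RCH lay near those of all regions. In RS4;11 the loci had fewer NT-only and more sh2-only regions than the genome-wide shares, on counts of 8 and 6. Leaving out RS4;11 sh2 library 1 gave 15 sh2-only and 15 NT-only regions, leaving out sh2 library 2 gave 17 and 14, leaving out NT library 1 gave 10 and 19, and leaving out NT library 2 gave 8 and 24. With the lists of RS4;11 cut to equal length there were 21 sh2-only regions of 162 (13.0%, against 3.71%) and 1 NT-only region (0.617%, against 6.46%). In SEM, equal length turned the order round, with 6 sh2-only regions of 156 (3.85%, against 6.06%) and 10 NT-only (6.41%, against 4.99%). In RCH it left 2 sh2-only regions of 77 (2.60%, against 4.90%) and 4 NT-only (5.19%, against 6.71%). These classes refer to the cut lists, which lack the peaks of lowest fold. A region sh2-only in them can have an NT peak in the deposited lists, and the reverse. As deposited, RS4;11 had 6 sh2-only regions and SEM 3 NT-only regions. With single libraries left out, SEM had 20 to 33 sh2-only and 5 to 12 NT-only regions, and RCH 1 to 4 sh2-only and 15 to 23 NT-only. In all 3 lines a class then needs 1 library fewer, which raises counts by construction. No share over all regions is given for the counts with a library left out, so they show no difference from the background.

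**Figure D5:**
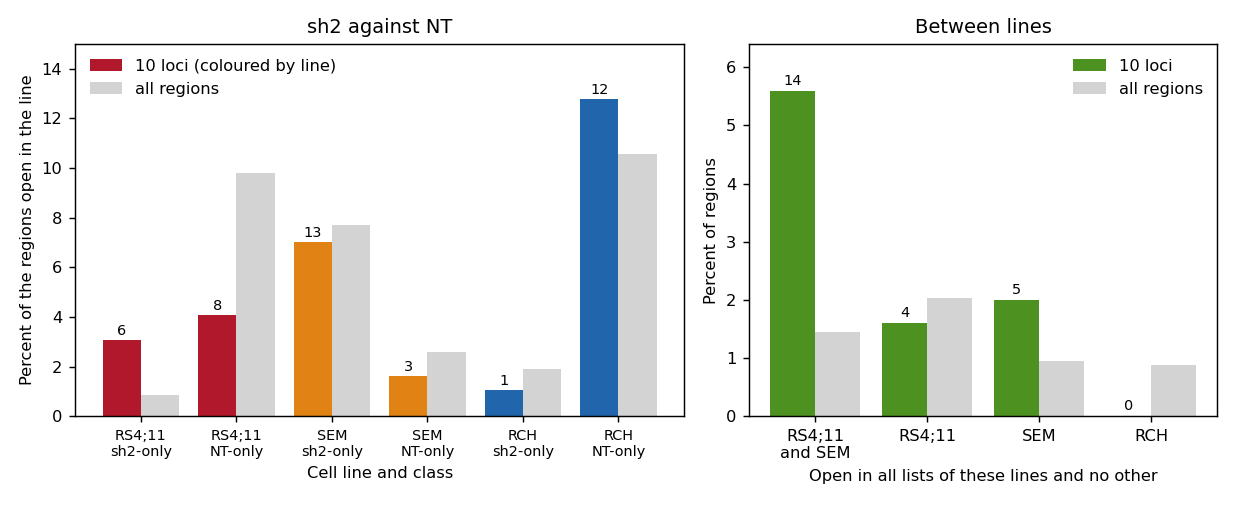
Left, percent of a line's regions that are sh2-only or NT-only, in the 10 loci (coloured bars, count above) and over all regions (grey). Right, percent of the 250 regions of the loci (green) and of all regions (grey) open in every list of the named lines and in no list of the others, where the loci hold 14 for RS4;11 with SEM (5.6%, against 1.44% of all regions) and 0 for RCH.

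In RS4;11 the sh2-only region of highest percentile was on chromosome 21 from 36306011 to 36306605 (RUNX1), with folds of 6.41 and 6.62 with sh2 and no NT peak. The next were on chromosome 10 from 64926538 to 64926876 (JMJD1C, 5.33 and 5.15) and on chromosome 5 from 88156368 to 88156593 (MEF2C, 4.36 and 4.69). In other lines the JMJD1C region had a peak in SEM NT library 1 (4.52) and RCH NT library 1 (4.58), and in no sh2 list. The RUNX1 region had one in SEM sh2 library 2 (3.88), and the MEF2C region had none. By mean percentile over all lists of any line that held them, the first NT-only regions of RS4;11 were on chromosome 7 from 92353240 to 92353666 (CDK6, 3.85 and 5.13 with NT), chromosome 6 from 45454500 to 45454806 (RUNX2, 5.56 and 6.01) and chromosome 10 from 65001665 to 65002014 (JMJD1C, 4.598 and 3.75). The CDK6 mean included RCH NT folds of 7.84 and 8.77, and within the RS4;11 NT lists the RUNX2 region had higher folds. There another CDK6 region, chromosome 7 from 92361999 to 92362284 (4.82 and 4.06), exceeded the JMJD1C region. The RUNX2 region was sh2-only in SEM (4.65 and 4.49), the 1 region of the 250 with opposite classes in 2 lines (0.611% of all regions were).

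SEM had sh2-only regions on chromosome 10 from 64933655 to 64933952 (JMJD1C, folds 5.59 and 9.01), on chromosome 21 from 36179851 to 36180220 (RUNX1, 6.76 and 6.57) and on chromosome 7 from 92392996 to 92393362 (CDK6, 5.04 and 4.204). The CDK6 region was open in all RS4;11 lists and in none of RCH. The 3 NT-only regions of SEM, at JMJD1C, RUNX2 and PROM1, had folds of 2.80 to 3.93.

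The NT-only regions of RCH were ranked by mean percentile over all lists that held them, also those of the fusion lines. That ranking favours regions strong in the fusion lines, and the first 3 had a peak in every list of those lines. Of the 12 NT-only regions, those on chromosome 6 from 45524002 to 45524384 (RUNX2, 4.92 and 5.30) and chromosome 4 from 16057107 to 16057400 (PROM1, 3.69 and 4.71) had no peak in the fusion lines. The NT-only region on chromosome 7 from 92250347 to 92251275 (CDK6) had folds of 8.37 to 10.5 in the 8 lists of the fusion lines, no peak in RCH sh2, and folds of 5.71 and 5.85 in RCH NT. On chromosome 5 from 88138623 to 88139044 (MEF2C) the folds were 7.04 to 10.5 in the fusion lines, and 6.10 and 6.81 in RCH NT. On chromosome 6 from 45455387 to 45455826 (RUNX2) they were 5.95 to 9.05 in the fusion lines, and 4.51 and 6.21 in RCH NT. The sole sh2-only region of RCH was on chromosome 7 from 92325033 to 92325286 (CDK6), with 3.64 and 4.33.

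The same class was rarely shared between lines. NT-only in at least 2 lines was 1 of 250 regions (1.08% of all regions were), and sh2-only in at least 2 lines 0 of 250 (0.0902% of all regions were). NT-only in all 3 lines was 0 of 250 (0.0588% of all regions were), and no region of the whole series was sh2-only in all 3 lines (0%). The region that was NT-only in 2 lines, on chromosome 5 from 88124929 to 88125234 (MEF2C), was NT-only in RS4;11 (2.72 and 2.69) and RCH (4 and 4.04), and in SEM it had a peak in both sh2 libraries (2.88 and 2.85) and in NT library 2 (3.31). Its mean percentile was 3.62 and its highest 10.7, so its peaks were weak in every list that held it.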

How the data were processed

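ATAC-seq peak lists of 6 samples were used, 2 lists per sample. Per the labels' protocols, Tn5 tagmentation of nuclei used Illumina's Nextera reagents, followed by PCR with barcodes. Bowtie2, MACS2 and the build hg19 are named in the submitters' processing notes. Whether duplicates were removed or reads shifted for the transposase offset is not stated there, nor are versions or settings. The authors' deposited number per peak was taken, from its range (1.6 to 44.2), as a ratio of signal over background, a fold enrichment. Sequencing depth is unknown, and intervals that need it are not given.

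Windows were those of the rule that defines the loci. The 10 members, the lists and the rules for named regions were chosen with earlier results of these data known. Peaks on the 22 autosomes and X were used (140 left out). Touching or overlapping peaks of all lists were merged, and a list was open in a region with at least 1 bp. Named regions are those of highest mean fold percentile within each locus or class. The mean was taken over every list that held the region, also lists of other lines. Lines pair sh2 with NT in the test over lines, from the line in the titles. No hg19 annotation was used, so regions were not placed on promoters, exons or introns. The rules for merging, classes and windows were run on simulated lists with planted regions of known class, which they returned. The simulated peaks of a region had the same bounds and fold in every list. That run did not cover ranks, list length, the tiles or the tests over lines. Alternatives were lists of equal length, peaks above the pooled median fold (6.37), windows widened by 50 kb, coverage of 50% of a region, merging per line, no pairing, and each library or line left out. The cuts by rank, the use of 1 shRNA alone, the tiles of 200 kb (peaks placed by their midpoint) and the permutation over lines were added after the data were seen. Merging was checked with bedtools 2.31.1, tables and tests used pandas 2.3.3, numpy 2.4.6 and scipy 1.17.1 in Python 3.11.15, and figures matplotlib 3.10.9.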

Additional observations from a re-analysis of the deposited data

Results flagged for a closer look

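Peaks in the 10 loci moved in opposite directions in different lines, with no overlap of libraries, though no test of that contrast between lines was possible. Mean sh2 minus mean NT was -9.5 peaks for RS4;11, 27 for SEM and -25 for RCH. As a number per 10000 peaks of a list, the same difference was 3.76 for RS4;11, 1.29 for SEM and -1.43 for RCH. Single loci did likewise, again untested. BCL2 differed by -3 peaks in RS4;11, by 1.5 in SEM and by -5.5 in RCH. For RUNX2 the differences were -2.5 in RS4;11, 1.5 in SEM and -3 in RCH. MEF2C differed by 6.5 in SEM and by -4.5 in RCH, RUNX1 by 4 and by -4.5, and PROM1 by 3.5 and by -2. In number, the whole lists differed in the same directions, while the RS4;11 value per 10000 peaks ran opposite to its list.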

How the results depend on the processing

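With lists cut to equal length within a line, the mean log2 ratio of sh2 over NT in peak number reversed to 0.0912, and without the line RCH it was 0.104. The ratio for the share reversed to -0.0983 with peaks above the pooled median fold alone, and to -0.0380 without RS4;11. Without the replicate block, that is without pairing by line, the values stayed at -0.12 and 0.06, with p = 0.8 for each by exact permutation of the 6 samples. Equal lists within a line gave 21 sh2-only and 1 NT-only regions in RS4;11, 6 and 10 in SEM, and 2 and 4 in RCH. Equal lists over all lines gave 14 of 124 regions open in all 12 lists (11.3%, against 19.8% of all regions), 2 in the fusion lines only and 2 in RCH only. Above the pooled median fold these were 7, 5 and 1, with 1 sh2-only and 4 NT-only regions in RS4;11, 4 sh2-only regions in SEM, and 0 sh2-only and 5 NT-only in RCH. These settings keep fewer peaks by construction, so a region they class as open on one side can have a dropped peak on the other. The cause of each reversal was not tested. The pooled median also sets the same fold for lists whose folds are not comparable. Windows widened by 50 kb gave 54 regions open in all 12 lists and 2 sh2-only regions in RCH. Coverage of 50% of a region left 17 open in all 12 lists. For the pooled median, the widened windows and the coverage rule no shares over all regions are given. Those counts therefore show no difference from the background. The sh2 lists alone gave 29 regions in the fusion lines only and 1 in RCH only (0.452%, against 2.49% of all regions). The NT lists alone gave 2 in RCH only (0.948%, against 3.20%). NT lists cut to the shortest gave 8 in the fusion lines only (5.16%, against 2.96%) and 2 in RCH only (1.29%, against 4.90%).

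With single libraries left out, sh2-only regions ranged from 8 to 17 in RS4;11, 20 to 33 in SEM and 1 to 4 in RCH. NT-only regions ranged from 14 to 24 in RS4;11, 5 to 12 in SEM and 15 to 23 in RCH. A class needs 1 library fewer then, which raises counts by construction, and no share over all regions is given beside these counts. Over 1.5 times the full count were all of these except sh2-only in RS4;11 without NT library 2, NT-only in RCH without sh2 library 2 and sh2-only in RCH without NT library 2. Regions open in all 12 lists ranged from 33 to 39, in the fusion lines only from 14 to 17 and in RCH only stayed at 0. The mean log2 ratio ranged from -0.161 to -0.0782 for peak number and from 0.0317 to 0.0846 for the share. Sequencing depth, which sets how many weak peaks a caller finds, is unknown, and each line and shRNA had 1 sample.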
